A study of Mus musculus with 9 samples.

Results

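The 10 genes described here, Hspa5, Hsp90b1, Ddit3, Atf4, Xbp1, Dnajb9, Sdf2l1, Herpud1, Calr and Pdia4, belong to the unfolded protein response of the endoplasmic reticulum (ER). They were chosen by name, as every array probe other than a control whose gene name is one of these symbols, which gave 18 probes. All 18 probes were well above background on all 9 arrays, so that all 10 genes were measured and tested, among 23946 features in all. None of the 10 differed between any pair of groups by the test used.

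RNA came from kidney glomeruli, the capillary tufts that filter the blood, which had been collected with magnetic Dynabeads from male BTBR mice at 22 weeks of age. One group of 3 samples came from wild-type BTBR mice given vehicle in the food, another 3 from BTBR ob/ob mice given vehicle, and the last 3 from BTBR ob/ob mice given enarodustat in the food, in each case over 18 weeks. The ob/ob mutation leaves the whole animal without functional leptin, and on the BTBR background such mice become obese and diabetic and develop kidney disease. Enarodustat blocks prolyl hydroxylases and thereby stabilises hypoxia-inducible factor. No enarodustat-treated wild-type group was analysed here. The labels do not say whether a sample came from 1 mouse or from several, and the p-values therefore refer to the spread from sample to sample, which may be technical.

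When unfolded proteins gather in the ER, 3 sensors in its membrane, IRE1 (Ern1), PERK (Eif2ak3) and ATF6, are switched on. IRE1 splices the mRNA of Xbp1 into the form that codes for an active transcription factor. PERK slows translation while favouring that of Atf4, whose targets include Ddit3, and ATF6 is cut to release a factor that acts with XBP1 on the genes of ER chaperones. Podocytes and other secretory cells of the glomerulus use this response when they fold many matrix and membrane proteins, and it has been studied in diabetic kidney disease. The sensors are controlled largely by protein state and Xbp1 by splicing, neither of which these array values measure.

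The promoters of these genes are shown first because several carry the element through which ATF6 acts. All 10 genes had a promoter in RefSeq (GRCm38.p6), taken as the 300 bases from 250 before to 50 after the gene's start, and both strands were searched. The ER stress response element, ERSE, was searched as CCAAT followed by 9 bases of any kind and CCACG, and was present in 3 of the 10 promoters, those of Hspa5, Hsp90b1 and Calr, where 0.119% of all 32851 promoters hold it. The related ERSE-II, ATTGG followed by 1 base of any kind and CCACG, was present in 1 of 10, Herpud1, against 0.0365% of all promoters. The composite element of ATF4 and C/EBP factors, searched as ATTGCATCA, TGATGCAAT or TGATGCAAC, was also present in 1 of 10, again Herpud1, against 0.362% of all promoters. The XBP1-type element TGACGTGG, called UPRE, was in none of the 10, against 0.676% of all promoters. The parts CCACG and CCAAT alone were found in 8 and 9 of the 10, but also in 32.8% and 37.4% of all promoters. Genes and elements were both chosen as known parts of this response, so these counts are a description and no test was made. A match is a stretch of letters and not a measured binding site.

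The Hspa5 element lies on the plus strand in chr2:34772020-34772048, at positions -65 to -47 from the gene's start. Hsp90b1 has a pair of elements, 1 in its own orientation on the minus strand in chr10:86705633-86705661 at -212 to -194, and 1 in the opposite orientation in chr10:86705528-86705556 at -107 to -89. The Calr element, opposite to the gene, lies in chr8:84847070-84847098 at -162 to -144. In Herpud1 the ERSE-II lies in chr8:94386372-94386392 at -52 to -42 and the ATF4 element, on the minus strand, in chr8:94386311-94386329 at -113 to -105. The matches are in capitals, with 5 bases on each side, all in GRCm38.p6 and read 5′ to 3′ on the strand that carries the element.
Hspa5 ERSE: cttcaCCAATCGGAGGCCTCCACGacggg
Hsp90b1 ERSE, same orientation: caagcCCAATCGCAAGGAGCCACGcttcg
Hsp90b1 ERSE, opposite orientation: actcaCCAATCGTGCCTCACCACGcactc
Calr ERSE: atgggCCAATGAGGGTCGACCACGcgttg
Herpud1 ERSE-II: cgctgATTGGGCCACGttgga
Herpud1 ATF4 element: cgggcTGATGCAACccgcc

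Values are log2 of the background-corrected signal minus the 75th percentile of the same array, so that 1 unit is a 2-fold difference and a level of 0 is the array's upper quartile. They compare arrays for one probe, and levels of different probes were not set against each other. The 75th percentile ranged from 210.5 to 325.4 signal units between arrays, 62.3% to 68.4% of probes were well above background, and no spot was saturated. Podocyte markers, which define glomeruli, were high in all samples, with list means that ranged from 5.28 to 5.43 in wild type, 4.52 to 4.61 in ob/ob vehicle and 4.03 to 4.64 with enarodustat. Of the 16 podocyte markers, 9 were lower in ob/ob vehicle than in wild type and 11 were lower with enarodustat than in wild type. Of 16 monocyte and macrophage markers, 10 and 8 were higher in these comparisons. In bulk RNA, fewer cells of a type and less RNA per cell cannot be told apart. The 18 proximal tubule markers had means of 3.84 in wild-type replicate 3 and 2.77 in enarodustat replicate 2, and of -1.59 to 1.07 in the other 7 arrays. Of 10 distal nephron markers, 1 was higher with enarodustat than in wild type, and the list mean was 1.21 to 2.13 with enarodustat against -2.35 to 1.19 in the other 6 arrays. In a fit without wild-type replicate 3 and enarodustat replicate 2, as in that on all arrays, 0 of the 10 genes were called in each comparison.

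Across the 3 comparisons, the estimated changes of the unfolded protein response genes were each smaller than 2-fold. In ob/ob vehicle against wild type the log2 changes ran from -0.43 (Sdf2l1) to 0.27 (Atf4), with enarodustat against ob/ob vehicle from -0.21 (Dnajb9) to 0.42 (Herpud1), and with enarodustat against wild type from -0.56 (Sdf2l1) to 0.43 (Herpud1). By limma, 0 of 10 genes were called in ob/ob vehicle against wild type at an adjusted p under 0.05, where 7.62% of all features were called, 4.96% higher and 2.66% lower. With enarodustat against wild type it was again 0 of 10, against 10.3% of all features, 6.14% higher and 4.11% lower. With enarodustat against ob/ob vehicle it was 0 of 10, and 0% of all features were called in either direction. At an unadjusted p under 0.05 there were 0 of 10 as well in each comparison, where 23.6%, 7.02% and 26.9% of all features passed in ob/ob vehicle against wild type, enarodustat against ob/ob vehicle, and enarodustat against wild type. The smallest unadjusted p of a member was 0.127, 0.117 and 0.0716 in that order.

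Bounds on these negative calls were worked out from the brightest probe of each gene only. The 95% interval lay within 2-fold in either direction for 9 of 10 genes in ob/ob vehicle against wild type. It did so for 10 of 10 with enarodustat against ob/ob vehicle, and for 9 of 10 with enarodustat against wild type. The exception in both cases of 9 was Sdf2l1, whose interval reached 2.11-fold and 2.31-fold lower. No interval was worked out for the other probes, so these counts do not bound them. Among them the second Herpud1 probe had 0.44 ± 0.31 (SE) with enarodustat against ob/ob vehicle. A second Hspa5 probe had -0.51 ± 0.23 with enarodustat against wild type. On simulated data made for the first comparison, changes of 2-fold were recovered in 51.0% of cases and changes of 1.5-fold in 7.67%. The simulations held 200 changed genes among features of any brightness, where the real comparison called 1825 features. The adjusted threshold therefore differed, and these shares are not detection rates for the 10 genes. A p above the threshold does not show that levels were equal.

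The signs were described without a test. Of the 10 genes, 7 had a log2 change below 0 in ob/ob vehicle against wild type (47.7% of all features), 7 with enarodustat against ob/ob vehicle (55.3%) and 8 with enarodustat against wild type (50.6%). Over the 23 other settings these counts ran from 4 to 9, from 5 to 9 and from 6 to 9. In ob/ob vehicle against wild type the count was 4 both without wild-type replicate 1, where the median change turned to 0.01, and with array median scaling, where it was also 0.01. The count of enarodustat against ob/ob vehicle was 5 without enarodustat replicate 2. The median change of the genes was -0.05, -0.14 and -0.21, beside medians over all features of 0.02, -0.03 and -0.01. Without enarodustat replicate 2 the median was -0.0053 with enarodustat against ob/ob vehicle and -0.07 with enarodustat against wild type. The first and second comparisons share the ob/ob vehicle arrays, and the first and last share the wild-type arrays. The second and last share the enarodustat arrays. Groups that did not overlap were found for 0 of 10 genes in ob/ob vehicle against wild type, against 30.7% of all features (17.9% higher, 12.9% lower). With enarodustat against ob/ob vehicle it was 0 of 10, against 16% (6.52% higher, 9.53% lower). With enarodustat against wild type it was 1 of 10, Pdia4, against 30.9% (16.9% higher, 14% lower).

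**Figure D1:**
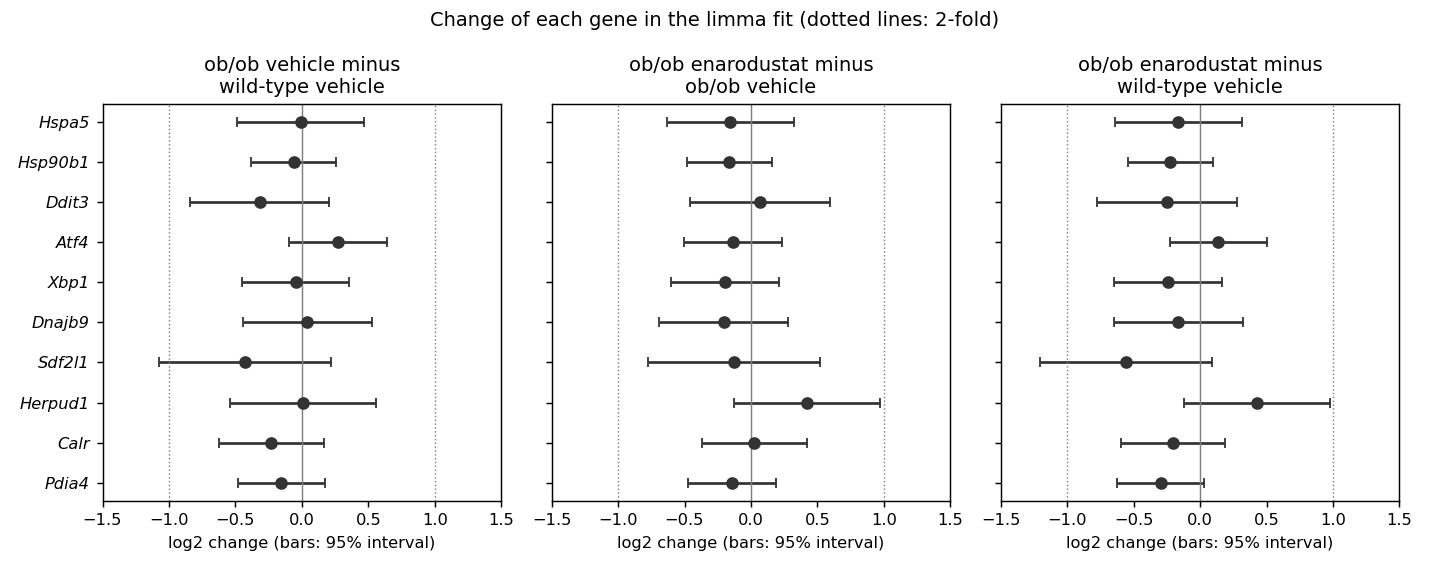
Log2 change (x axis) of each of the 10 genes, read by its brightest probe, in the 3 comparisons of the limma fit. Bars are 95% intervals and dotted lines mark 2-fold. All intervals include 0, and only that of Sdf2l1 passes a 2-fold line, in the panels of ob/ob vehicle and of enarodustat against wild type.

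Of the transcription factors, Atf4, the factor made when PERK slows translation, was measured by its brightest probe at chr15:80087902-80087961 (mm9, plus strand). Its values in replicates 1 to 3 were 6.05, 6.04 and 5.51 in wild type, 6.09, 6.02 and 6.31 in ob/ob vehicle, and 5.98, 6.02 and 6.01 with enarodustat. Wild-type replicate 3 was low and ob/ob vehicle replicate 3 was high, while the 3 enarodustat arrays were nearly equal, and all groups overlapped. The means in the vehicle groups were 5.87 ± 0.31 (SD, n = 3) and 6.14 ± 0.15 (SD, n = 3), and the SD with enarodustat was 0.02. The change in ob/ob vehicle against wild type was 0.27 ± 0.16 (SE, limma adjusted p = 0.351), and that with enarodustat against ob/ob vehicle was -0.13 ± 0.16 (adjusted p = 0.850).

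Ddit3 codes for CHOP, a factor downstream of ATF4 that is tied to cell death in prolonged ER stress. Its brightest probe spans chr10:126732518-126732821 (mm9, plus strand), 304 bases of genome for a 60-base probe, as a probe across a splice junction does. It gave 1.03, 0.74 and 0.63 in wild type, 0.75, 0.39 and 0.30 in ob/ob vehicle, and 0.97, 0.10 and 0.57 with enarodustat. The enarodustat arrays held nearly the highest and the lowest value of all 9, so that they overlapped both other groups. Against wild type the change in ob/ob vehicle was -0.32 ± 0.23 (SE, adjusted p = 0.450), and with enarodustat against ob/ob vehicle 0.07 ± 0.23 (adjusted p = 0.960).

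Xbp1, the substrate of IRE1, was read at chr11:5425816-5425875 (mm9, plus strand), and these values do not separate its spliced from its unspliced mRNA. The levels were 5.33, 5.06 and 5.07 in wild type, 5.17, 4.88 and 5.27 in ob/ob vehicle, and 5.24, 4.66 and 4.83 with enarodustat. Both the vehicle groups lay in one range, and enarodustat replicates 2 and 3 lay below them. For Xbp1 the difference of ob/ob vehicle from wild type was -0.05 ± 0.18 (SE, adjusted p = 0.903), with enarodustat against ob/ob vehicle -0.20 ± 0.18 (adjusted p = 0.814), and with enarodustat against wild type -0.24 ± 0.18 (adjusted p = 0.425).

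Among the chaperones, Hspa5 codes for BiP, the main Hsp70 of the ER, which binds unfolded chains and also holds the sensors inactive. Its brightest probe lies at chr2:34631913-34631972 (mm9, plus strand). The values were 5.81, 5.49 and 5.78 in wild type, 5.66, 5.66 and 5.74 in ob/ob vehicle, and 6.05, 5.26 and 5.29 with enarodustat. The ob/ob vehicle arrays were close to each other (SD 0.04), whereas the enarodustat arrays included both the highest and the lowest of the 9 (SD 0.45). The change in ob/ob vehicle against wild type was -0.01 ± 0.21 (SE, adjusted p = 0.987, 95% interval -0.49 to 0.47), and with enarodustat against ob/ob vehicle -0.16 ± 0.21 (adjusted p = 0.868, 95% interval -0.63 to 0.32).

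Hsp90b1 codes for GRP94, the Hsp90 of the ER, which folds a restricted set of clients such as integrins and Toll-like receptors. At chr10:86153693-86153752 (mm9, minus strand) it read 6.22, 5.93 and 6.10 in wild type, 5.94, 6.12 and 6.01 in ob/ob vehicle, and 6.11, 5.74 and 5.73 with enarodustat. Enarodustat replicates 2 and 3 were the lowest 2 arrays, as for Hspa5, while replicate 1 lay inside the range of the other groups, where for Hspa5 it was the highest array. The difference of ob/ob vehicle from wild type was -0.06 ± 0.14 (SE, adjusted p = 0.834), and with enarodustat against wild type -0.23 ± 0.14 (adjusted p = 0.346).

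Calr codes for calreticulin, which binds calcium and holds glycoproteins while they fold. At chr8:87366192-87366251 (mm9, minus strand) its values were 4.49, 4.18 and 4.80 in wild type, 4.26, 4.24 and 4.29 in ob/ob vehicle, and 4.52, 4.13 and 4.21 with enarodustat. Wild type held the widest spread (SD 0.31, against 0.03 in ob/ob vehicle), and its replicate 2 lay below all ob/ob vehicle arrays while replicates 1 and 3 lay above them. The difference of ob/ob vehicle from wild type was -0.23 ± 0.17 (SE, adjusted p = 0.465).

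The co-chaperones and folding enzymes stood as follows. Dnajb9 codes for ERdj4, a J-domain partner of BiP and a classic target of XBP1. At chr12:45307071-45307129 (mm9, minus strand) it gave 1.87, 1.91 and 1.77 in wild type, 2.18, 1.75 and 1.75 in ob/ob vehicle, and 2.09, 1.26 and 1.71 with enarodustat. One array of each ob/ob group was high, enarodustat replicate 2 was the lowest of all, and the groups overlapped. The change with enarodustat against ob/ob vehicle was -0.21 ± 0.21 (SE, adjusted p = 0.832).

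Sdf2l1, whose product works with ERdj3 in the BiP cycle, had the widest range of the 10 over the arrays. At chr16:17130426-17130485 (mm9, minus strand) it gave 0.69, 0.24 and 0.92 in wild type, 0.11, 0.28 and 0.17 in ob/ob vehicle, and 0.72, -0.39 and -0.16 with enarodustat. Enarodustat replicates 2 and 3 lay below the other 7 arrays, and replicate 1 lay among the wild-type arrays. The change in ob/ob vehicle against wild type was -0.43 ± 0.28 (SE, adjusted p = 0.409), and with enarodustat against wild type -0.56 ± 0.28 (adjusted p = 0.250). In the fit without enarodustat replicate 1 the latter was -0.89 with an adjusted p of 0.0482, the only one of 23 other settings in which a member was called, while over all 23 its change ran from -0.89 to -0.17.

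Pdia4 codes for ERp72, a disulfide isomerase of the ER. At chr6:47746516-47746575 (mm9, minus strand) the values were 1.29, 1.24 and 1.56 in wild type, 1.04, 1.23 and 1.35 in ob/ob vehicle, and 1.21, 0.87 and 1.12 with enarodustat. All 3 enarodustat arrays lay below all 3 wild-type arrays, and the ob/ob vehicle arrays overlapped both. The change with enarodustat against wild type was -0.30 ± 0.14 (SE, adjusted p = 0.230, 95% interval -0.63 to 0.03), which did not pass the test.

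Herpud1 codes for a membrane protein that organises ER-associated degradation. Its promoter carries both the ERSE-II and the ATF4 element shown above, and a link between elements and changes was not tested. Herpud1 had the largest positive changes of the 10 in both enarodustat comparisons, and neither passed the test. At chr8:96919117-96919176 (mm9, plus strand) it gave 3.55, 3.40 and 3.62 in wild type, 3.93, 3.25 and 3.41 in ob/ob vehicle, and 4.38, 3.52 and 3.95 with enarodustat. Enarodustat replicates 1 and 3 were the highest 2 arrays of the 9, but replicate 2 lay below ob/ob vehicle replicate 1 and inside the wild-type range. The means were 3.52 ± 0.11 (SD, n = 3), 3.53 ± 0.35 (SD, n = 3) and 3.95 ± 0.43 (SD, n = 3). The change was 0.01 ± 0.24 (SE, adjusted p = 0.991) in ob/ob vehicle against wild type, 0.42 ± 0.24 (adjusted p = 0.757) with enarodustat against ob/ob vehicle, and 0.43 ± 0.24 (adjusted p = 0.300) with enarodustat against wild type. Herpud1 kept its sign under all 23 other settings in both enarodustat comparisons and was called in none of them. Its change ran from 0.20 to 0.64 against ob/ob vehicle and from 0.21 to 0.69 against wild type. Not all 23 settings can move these estimates, since leaving out an array of the group not compared does not change them.

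**Figure D2:**
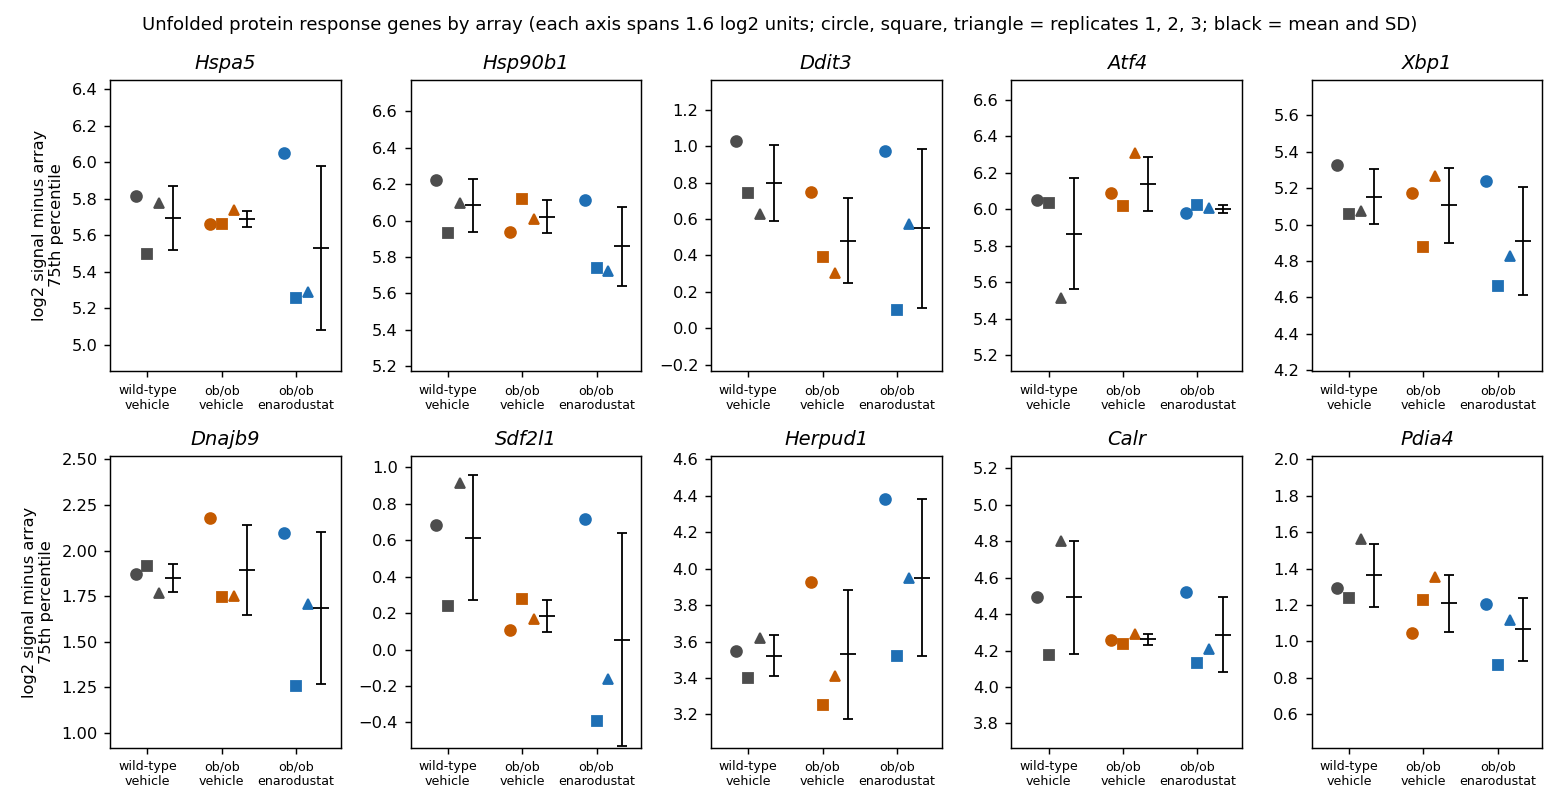
Level of each gene (y axis, log2 signal minus the array's 75th percentile, each panel spanning 1.6 log2 units) on the 9 arrays by group, with the mean and SD in black. The groups overlap in all panels but for wild type against enarodustat in Pdia4, and the enarodustat arrays lie far apart for Hspa5 (SD 0.45) and Sdf2l1 (SD 0.59).

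The genes with several probes were read at more than 1 place, though not always on the same transcript. Of the 18 probes, fitted among all 36673 that were kept, 0 were called in any comparison, and 14, 12 and 14 had a log2 change below 0 in ob/ob vehicle against wild type, enarodustat against ob/ob vehicle, and enarodustat against wild type. Of the 6 genes with several probes, 2, 1 and 2 had probes of opposite sign in these comparisons. The Hspa5 probes are shown because they gave different sizes: those that begin at bases 1582 and 1702 of the transcript, in the coding sequence, lie upstream of the brightest probe, which begins at base 2479. The first covers chr2:34630699-34631075 across a splice junction and the second chr2:34631136-34631195 (mm9, plus strand), and both are printed 5′ to 3′ in lower case, with nothing singled out.
Hspa5 probe at base 1582: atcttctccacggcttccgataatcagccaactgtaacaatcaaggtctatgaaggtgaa
Hspa5 probe at base 1702: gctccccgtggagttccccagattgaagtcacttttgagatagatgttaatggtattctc

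For Hspa5 the change in ob/ob vehicle against wild type was -0.37 ± 0.23 (SE, adjusted p = 0.367) at base 1582 and -0.39 ± 0.26 (adjusted p = 0.415) at base 1702, against -0.01 ± 0.21 at base 2479. With enarodustat against wild type it was -0.51 ± 0.23 (adjusted p = 0.204) at base 1582 and -0.44 ± 0.26 (adjusted p = 0.3265) at base 1702, against -0.16 ± 0.21 at base 2479. At base 1702 the values were 4.41, 4.03 and 4.98 in wild type, 3.89, 4.09 and 4.28 in ob/ob vehicle, and 4.42, 3.92 and 3.75 with enarodustat. Wild-type replicate 3 was the highest array for both upstream probes, and the groups overlapped for all 3 probes. The 3 Xbp1 probes had one sign, with changes of -0.21, -0.14 and -0.05 in ob/ob vehicle against wild type and of -0.25, -0.22 and -0.20 with enarodustat against ob/ob vehicle. Herpud1 gave 0.44 ± 0.31 and 0.42 ± 0.24 with enarodustat against ob/ob vehicle at its probes.

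The second Ddit3 probe, on an Ensembl transcript at chr10:126731579-126731638 (mm9, plus strand), gave -0.34, -0.25 and 0.37 in wild type, -0.63, -0.54 and -0.59 in ob/ob vehicle, and -0.09, -0.11 and -0.53 with enarodustat. This probe begins at base 909 of its transcript, yet lies upstream in the genome of the brightest probe, which begins at base 288 of another transcript. Whether both probes read the same RNA was not tested. All ob/ob vehicle arrays lay below all others for the second probe. Its change was -0.52 ± 0.20 (SE, unadjusted p = 0.0319, limma adjusted p = 0.169) in ob/ob vehicle against wild type and 0.34 ± 0.20 (adjusted p = 0.799) with enarodustat against ob/ob vehicle, and these comparisons share the ob/ob vehicle arrays. The second Atf4 probe, at chr15:80087079-80087138, read 2.16, 2.12 and 2.13 in ob/ob vehicle and 1.73, 1.65 and 1.92 with enarodustat, which did not overlap, with a change of -0.37 ± 0.18 (SE, adjusted p = 0.758). Against wild type this probe gave -0.14 with enarodustat where the brightest gave 0.14. The Dnajb9 probes disagreed in sign in all 3 comparisons, with -0.09 and 0.04, 0.19 and -0.21, and 0.10 and -0.16.

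**Figure D3:**
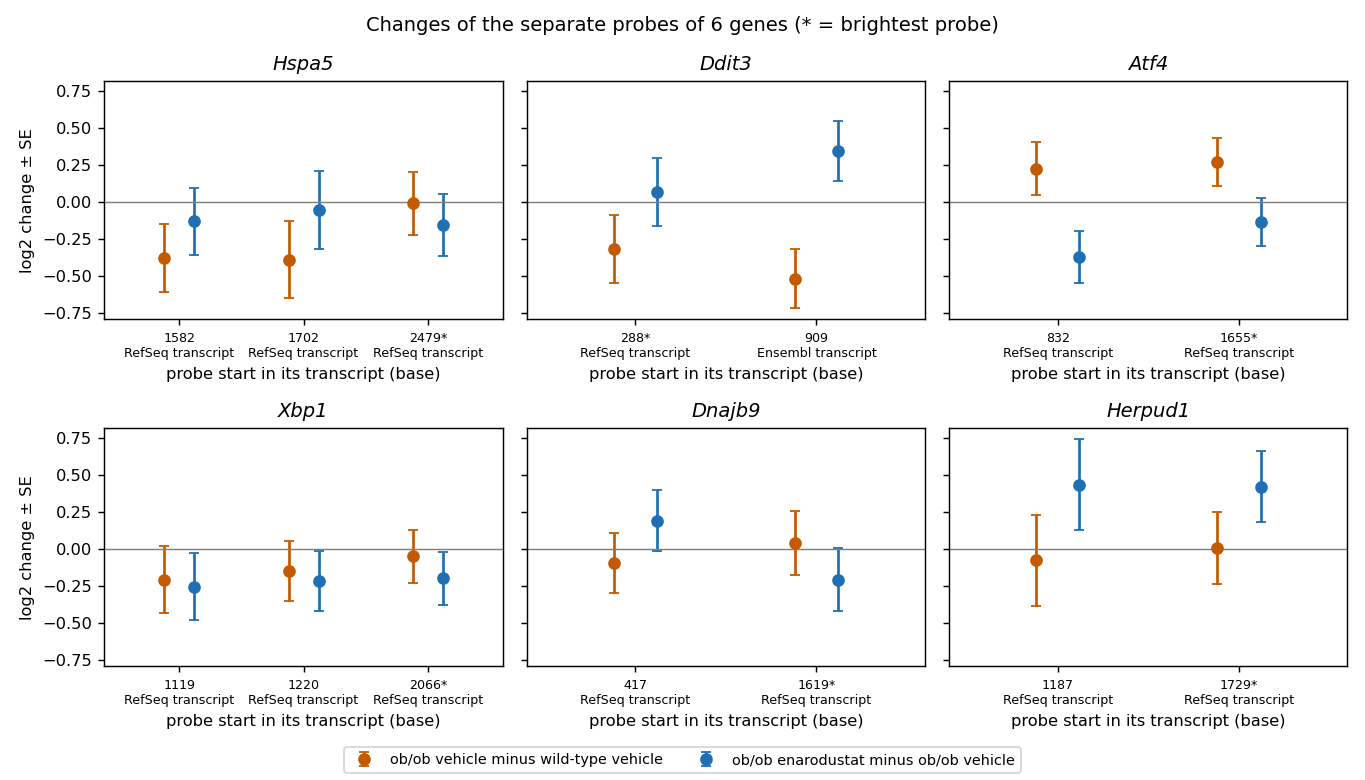
Log2 change ± SE (y axis) of every probe of the 6 genes that have several, by the base at which the probe begins in its transcript, for ob/ob vehicle minus wild type and for enarodustat minus ob/ob vehicle. The upstream Hspa5 probes sit at -0.37 and -0.39 in the first comparison, below the brightest probe at -0.01, and the Dnajb9 probes lie on opposite sides of 0.

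The genes varied between arrays of the same group, and in part together. Set against each gene's mean over the 9 arrays, enarodustat replicate 2 was lowest for 7 of the 10 genes and averaged -0.34, with 1 of 10 above its own mean. Enarodustat replicate 1 averaged 0.27, with 8 of 10 above their means, and enarodustat replicate 3 averaged -0.14. In wild type the averages were 0.17, -0.04 and 0.11, and in ob/ob vehicle 0.05, -0.08 and -0.0014. Under quantile normalization enarodustat replicate 2 was lowest for 5 of the 10 genes, after normexp correction for 5 and with array median scaling for 8. The SD among the enarodustat arrays was above that among the ob/ob vehicle arrays for 9 of 10 genes, as it was for 57.1% of all features, and above that in wild type for 7 of 10, against 44.2%. Enarodustat replicate 3 was the only array on the second slide and replicates 1 and 2 shared a slide with the other 6 arrays.

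Hspa5 followed the other members most closely, with a Pearson correlation of 0.91 to their mean over the 9 arrays. Xbp1 had 0.87, Sdf2l1 0.85, Hsp90b1 0.77, Ddit3 0.75, Dnajb9 0.72, Calr 0.63 and Pdia4 0.54. Herpud1, at 0.25, and Atf4, at -0.30, did not share the pattern. These correlations describe 9 arrays that share groups and scaling, and carry no test. Over the 15836 named genes well above background on all arrays, the 5 with the pattern most like that of the members were Gm31786 (0.98), Ahsa2 (0.95), H3c13 (0.94), Vps37a (0.93) and H3c14 (0.93), of which H3c13 and H3c14 belong to a family of near-identical histone genes. None of these 5 was called in a comparison, but they were picked for likeness to genes that were not called, so this is no separate result.

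Other gene lists moved across the same arrays. The proximal tubule list mean was high in wild-type replicate 3 and in enarodustat replicate 2, arrays in which the members averaged 0.11 and -0.34 around their means. The cytosolic heat shock genes averaged 4.90 in wild-type replicate 1 and 3.99 to 4.33 in the other arrays, and the immediate early genes 2.86 against 1.89 to 2.45. Podocyte markers were lowest in enarodustat replicate 2, at 4.03. Erythrocyte markers had list means of -1.97 to -0.46 in wild type, -0.61 to 0.56 in ob/ob vehicle and 0.25 to 1.91 with enarodustat, and 4 of the 6 measured were higher with enarodustat than in wild type. With the proximal tubule mean as a covariate, the members' median in ob/ob vehicle against wild type was -0.13 in place of -0.05, and 9 in place of 7 genes had a change below 0. For enarodustat against ob/ob vehicle the median was -0.10 in place of -0.14. The part of the other lists in the members' levels was not tested.

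**Figure D4:**
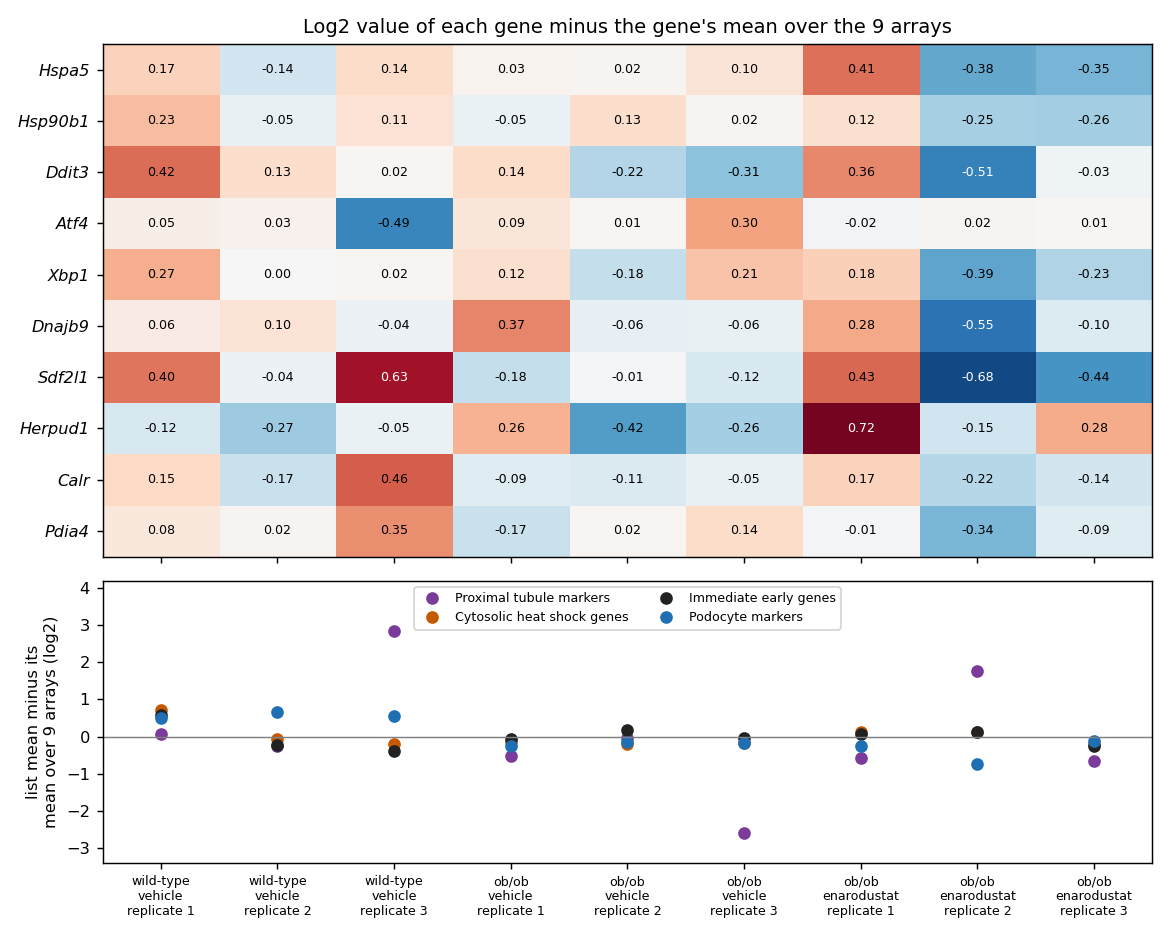
The upper panel gives the log2 value of each gene minus that gene's mean over the 9 arrays (columns), printed in each cell and coloured from blue (low) to red (high), and the lower panel the centred means of 4 marker lists on the same arrays (y axis, log2). Enarodustat replicate 2 is blue for all genes but Atf4, and the tubule list is highest in wild-type replicate 3.

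The rest of the pathway was read from 6 lists with 130 measured genes outside the 10 members. In ob/ob vehicle against wild type 6 of the 130 were higher and 0 lower, or 4.62%, which is below the 7.62% called among all features. With enarodustat against wild type 5 were higher and 3 lower, or 6.15% against 10.3%. With enarodustat against ob/ob vehicle 0 of 130 were called. The median change over the 130 was 0.13, -0.12 and 0.01 in ob/ob vehicle against wild type, enarodustat against ob/ob vehicle, and enarodustat against wild type, and 36, 94 and 62 of them had a change below 0.

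None of the sensors themselves was called. Ern1 had log2 changes of 0.13 ± 0.12 in ob/ob vehicle against wild type and -0.22 ± 0.12 with enarodustat against ob/ob vehicle (SE, limma adjusted p = 0.588 and 0.756). Eif2ak3 had 0.21 ± 0.16 and -0.10 ± 0.16 (adjusted p = 0.476 and 0.899), and Atf6 0.29 ± 0.13 and -0.26 ± 0.13 (adjusted p = 0.202 and 0.719). Of the 15 sensors, transducers and processing factors 0 were called in these comparisons and 2 were lower with enarodustat than in wild type, Creb3l1 and Creb3l2, which are membrane-bound factors related to ATF6. Creb3l1 read 1.46, 1.33 and 1.53 in wild type, 0.49, 1.33 and 1.28 in ob/ob vehicle, and 0.02, 0.44 and 0.39 with enarodustat, a change of -1.16 ± 0.23 against wild type (adjusted p = 0.0170). All enarodustat arrays lay below all others for Creb3l1, and the call was lost without enarodustat replicate 1 (adjusted p = 0.0570). Creb3l2 changed by -0.58 ± 0.14 (adjusted p = 0.0395), a call that was lost when any of the 9 arrays was left out.

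The folding and disposal machinery gave no call. Of 30 other ER chaperones and folding enzymes and of 21 genes of ER-associated degradation, 0 were called in any comparison. Hyou1, the large ER chaperone and exchange factor of BiP, had -0.43 ± 0.31 in ob/ob vehicle against wild type (SE, adjusted p = 0.447), and Canx, the membrane-bound partner of calreticulin, 0.15 ± 0.12 (adjusted p = 0.516). Dnajc3, an inhibitor of PERK and BiP co-chaperone, had -0.05 ± 0.15, Creld2 -0.13 ± 0.22, the secreted factor Manf 0.19 ± 0.25, and the ubiquitin ligase Syvn1 -0.11 ± 0.14, with adjusted p of 0.869, 0.779, 0.686 and 0.665. With enarodustat against ob/ob vehicle these 6 genes had changes between -0.17 and 0.06.

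The 25 genes of ER translocation and vesicle export had the most even signs. With enarodustat against ob/ob vehicle all 25 had a change below 0, with a median of -0.17 and a range of -0.40 to -0.05, where 55.3% of all features were below 0. In 11 of the 25 the enarodustat arrays all lay below the ob/ob vehicle arrays, against 9.53% of all features, and 0 were called. Among them were Tram1 (-0.31), which helps chains enter the ER, Sar1b (-0.27), the GTPase of COPII vesicles, Lman1 (-0.26), a cargo receptor, and Sec61a1 (-0.18), the pore of the translocon. These genes were picked here after their values were seen. Across the 23 other settings 23 to 25 were below 0, with medians of -0.24 to -0.11, and 23 were below 0 without enarodustat replicate 2. Settings that only leave out a wild-type array cannot change this count. Against wild type the same list had 16 of 25 below 0 with enarodustat and 4 of 25 in ob/ob vehicle, with medians of -0.03 and 0.14. These last values were less stable. In ob/ob vehicle the 4 became 12, with a median of 0.02, with the tubule covariate, and ran from 3 to 12 over the 23 settings. With enarodustat the 16 became 9 without enarodustat replicate 2, 11 without wild-type replicate 1, where the median turned to 0.04, and 22 under quantile normalization.

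Within that list 2 genes were higher in ob/ob vehicle than in wild type. Kdelr3, a receptor that returns escaped ER residents from the Golgi, read -3.03, -3.12 and -3.34 in wild type, -1.83, -1.84 and -1.93 in ob/ob vehicle, and -2.33, -2.37 and -1.53 with enarodustat. All ob/ob arrays lay above all wild-type arrays. The change was 1.30 ± 0.22, or 2.46-fold, in ob/ob vehicle (SE, limma adjusted p = 0.0102), which held when each of the 9 arrays was left out but not with the tubule covariate, and 1.09 ± 0.22 with enarodustat against wild type (adjusted p = 0.0179), which was lost without wild-type replicate 2 or 3 (adjusted p up to 0.0546). Sec24d, a cargo adaptor of COPII vesicles that collagen export needs, read 0.10, -0.08 and -0.47 in wild type, 0.75, 0.63 and 0.53 in ob/ob vehicle, and 0.44, -0.06 and 0.34 with enarodustat. Its change in ob/ob vehicle was 0.79 ± 0.18 (adjusted p = 0.0374), and 6 of 9 left-out arrays ended the call. With enarodustat against wild type Srp54a, a subunit of the signal recognition particle, changed by -0.50 ± 0.13 (adjusted p = 0.0463). This is uncertain because the mouse genome has near-identical copies of the gene, and 8 of 9 left-out arrays ended the call.

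Of the 10 pathway genes called in a comparison 8 had a RefSeq promoter, and the searched elements were in 2 of these, Kdelr3 and Sec24d. In both it was TGACGTGG, the element that none of the 10 members carries and that 6 of 101 pathway genes with a promoter hold, Kdelr3, Sec24d, Txndc5, Txndc11, Ube2j1 and Vcp. It lies in chr15:79516373-79516390 on the minus strand, opposite to Kdelr3, at -30 to -23 from the start, and in chr3:123267465-123267482 on the plus strand, in the orientation of Sec24d, at -26 to -19 (GRCm38.p6). These are shown, with the element in capitals, because both genes of the list that were higher in ob/ob vehicle carry it. Txndc5, Txndc11, Ube2j1 and Vcp carry it too and were not called in any comparison. A link between the element and the changes was not tested. The search of called genes was made after their values were seen.
Kdelr3 UPRE: cgcggTGACGTGGcgggg
Sec24d UPRE: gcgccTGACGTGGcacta

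Of the targets of ATF4 and CHOP, 29 of 31 listed genes were measured, and 1 was higher in ob/ob vehicle than in wild type. Psat1, an enzyme of serine synthesis, had 0.71 ± 0.18 (SE, adjusted p = 0.0472), but its other probe gave -0.02 and 8 of 9 left-out arrays ended the call. With enarodustat against wild type Eif4ebp1, which restrains cap-dependent translation, was the 1 gene higher, with 0.57 ± 0.15 (adjusted p = 0.0495), a call lost when any array was left out. The usual readouts of this branch were not called: in ob/ob vehicle against wild type Trib3 had -0.07 ± 0.22, Chac1 0.13 ± 0.16, Asns 0.15 ± 0.13, Ppp1r15a -0.09 ± 0.15 and Atf3 -0.76 ± 0.44, with adjusted p from 0.343 to 0.885. Atf3, also an immediate early gene, read 1.09, 0.85 and -0.52 in wild type, so that replicate 3 stood apart from the other 2.

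The list of 10 genes of ER stress and cell death held 3 genes that were higher in both ob/ob groups than in wild type, where 4.96% and 6.14% of all features were higher in ob/ob vehicle and with enarodustat. Over the 23 other settings the number higher ran from 0 to 4 in ob/ob vehicle, with 0 under the tubule covariate and without ob/ob vehicle replicate 1 or 3, and from 2 to 3 with enarodustat. Casp12, a caspase at the ER membrane, read -0.05, -0.01 and -0.67 in wild type, 0.74, 0.63 and 0.90 in ob/ob vehicle, and 0.55, 0.79 and 0.52 with enarodustat. Its change was 1.00 ± 0.19 in ob/ob vehicle (SE, limma adjusted p = 0.0160), which ended if ob/ob vehicle replicate 1 or 3 was left out (adjusted p at most 0.0571), and 0.86 ± 0.19 with enarodustat (adjusted p = 0.0253), lost without any one of the enarodustat arrays (adjusted p up to 0.0739). Bak1, a pore-forming member of the BCL2 family, had 0.46 ± 0.10 (adjusted p = 0.0274) and 0.58 ± 0.10 (adjusted p = 0.0104). Dapk1, a death-associated kinase, had 0.65 ± 0.17 (adjusted p = 0.0491) and 1.04 ± 0.17 (adjusted p = 0.00837). For Bak1 and Dapk1 the changes with enarodustat held when each array was left out, while those in ob/ob vehicle were lost in 6 and 7 of 9 cases. The 2 probes of Dapk1 gave 0.52 and 0.65 in ob/ob vehicle and 0.63 and 1.04 with enarodustat, each against wild type. With each probe fitted as its own feature, 0 of the 2 were called in ob/ob vehicle and 1 with enarodustat. Both comparisons use the wild-type arrays. Macrophage markers were higher in the same ob/ob arrays, with list means of 1.07 to 2.10 against -0.27 to 0.23 in wild type, as were mesangial and smooth muscle markers, with 3.78 to 4.23 against 2.68 to 3.43 and 3 of 10 markers called higher in each of these comparisons. Wild-type replicate 3 was the lowest array for the mesangial list and for Casp12, Sec24d and Kdelr3. The part of these cell types in the called genes was not tested.

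**Figure D5:**
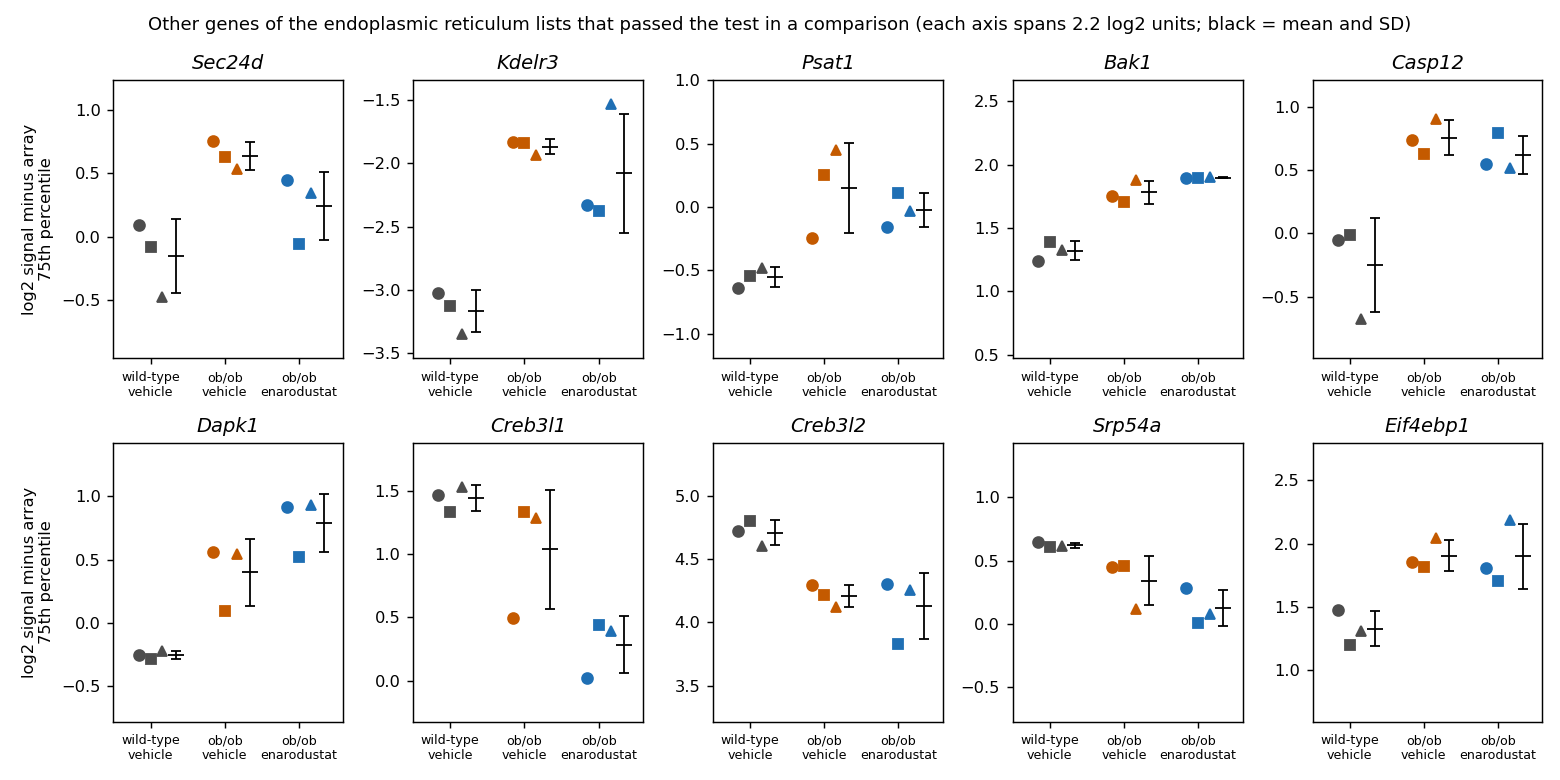
Level (y axis, log2 signal minus the array's 75th percentile, each panel spanning 2.2 log2 units) of the 10 other pathway genes that passed the test in a comparison, on the 9 arrays by group, with the mean and SD in black. Kdelr3, Psat1, Eif4ebp1, Casp12, Bak1 and Dapk1 lie higher on all ob/ob arrays than on all wild-type arrays, and Creb3l1 lies lowest with enarodustat.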

How the data were processed

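Total RNA was measured on Agilent arrays of a single colour (Cy3), per the labels. Per the file headers, spots were read by Agilent Feature Extraction, version 11.5.1.1. The deposited scanner files give spot intensity on a linear scale, with background subtracted and no scaling between arrays, per the file headers, and probe coordinates in mm9. The deposited value table holds log2 values whose scale, centring and direction are not stated by the authors. When compared with the scanner values, every column was the log2 processed signal minus the 75th percentile to within a median of 0.0037 to 0.0069, with no centring of genes, so none of these stays unknown, and its column medians were -3.10 to -2.93. The submitters' processing notes also name limma, with no role.

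Controls and outlier spots were left out, which removed 32 of 56605 probes. Of these probes, 32989 were named by accession, 10228 by symbol and 519 by synonym through GRCm38.p6, and 12869 kept the name in the files. A probe was kept if 1 group or more had it well above background on all its arrays (36673 probes), and each gene was read from its brightest kept probe, which gave 23946 features. limma 3.58.1 in R 4.3.3 (lmFit, contrasts.fit, eBayes) was fitted to all 9 arrays with 3 groups and 6 residual degrees of freedom, p-values were adjusted by Benjamini-Hochberg over all features, with calls made below 0.05. The fit was tested on simulated data, with 200 changed genes in each of 5 simulations. The number of arrays limits the precision. Python 3.11.15, pandas 2.3.3 and matplotlib 3.10.9 were used for joins, motifs and figures.

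The members, the pathway and marker lists and the naming rule were chosen with earlier results of these data known. The rule names all members and probes, 14 anchor genes, up to 4 called genes a list and comparison, and the 5 genes most like the members. The alternatives were other scalings, background correction, filters on dim probes, probe rules, samples in the fit, array weights, replicate and slide blocks, a tubule covariate, the authors' table and left-out arrays. Some of these cannot move a given estimate, such as leaving out an array of a group that is not compared. 2 summaries, the counts below 0 in each list and the members' levels under other scalings, were added after seeing the data. The C-terminal residues of the proteins were not analysed here.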

Additional observations from a re-analysis of the deposited data

How the results depend on the processing

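Over 23 alternatives the number of members called was 0 in ob/ob vehicle against wild type and with enarodustat against ob/ob vehicle. It was also 0 with enarodustat against wild type, except for 1 gene (Sdf2l1) without enarodustat replicate 1, so that leaving out each array in turn gave 0 to 1. The members' median ran from -0.23 to 0.01, from -0.25 to -0.0053 and from -0.37 to -0.07 in these comparisons. The most negative value of the first came with normexp correction, where quantile normalization gave -0.19. The pathway genes outside the members were less stable. In ob/ob vehicle against wild type the 6 called became 2 with no filter on dim probes, 3 with only the compared groups in the fit, 20 with array weights and 0 with the tubule covariate, and 1 to 7 when an array was left out. With enarodustat against wild type the 8 called became 5 with array median scaling, 4 with no filter on dim probes, 3 with only the compared groups in the fit, 5 with the slide as a block, 2 with the pair of tubule-rich arrays (wild-type replicate 3, enarodustat replicate 2) left out, and 4 to 7 when an array was left out, but 12 with normexp correction (5 higher, 7 lower) and 12 with array weights (9 higher, 3 lower). The causes of these shifts were not tested. Over all features, the 1825 called in ob/ob vehicle against wild type became 719 with the tubule covariate, 1006 with no dim filter, 4156 with array weights and 923 to 1776 with an array left out. The 2455 called with enarodustat against wild type became 1236 with no dim filter, 4503 with array weights, 1368 with the slide block and 1222 to 2168 with an array left out.

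With the replicate number as a block, members called were 0, 0 and 0, their medians -0.05, -0.14 and -0.21, and the pathway genes called 5, 0 and 5. Correlations of the deviations of same-numbered arrays ran from -0.31 to 0.27, so the numbers were not taken to pair the samples. Over all features the block gave 1406, 0 and 1950 calls. The second slide holds 1 array, so the slide block equals leaving it out. Scaling by the array median moved the median of all features to 0.08 and -0.09 in the first and second comparison. No member probe was near background, and 3 arrays a group limit what could be called.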
